A study of Mus musculus with 4 samples.

Results

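The genes described here encode the keratins, the proteins of the cornified envelope and the adhesion proteins, proteases, inhibitors and transcription factors that go with them in surface epithelia. They were chosen by gene name from the array annotation: keratins (*Krt*), small proline-rich proteins (*Sprr*), late cornified envelope proteins (*Lce*), desmogleins and desmocollins (*Dsg*, *Dsc*), kallikreins (*Klk*) and 11 named genes of the envelope and its control. *Sprr1a* was left out by the same rule. The names gave 133 of the 30028 gene entries of the array. Of these, 70 had a probe well above background on at least 1 array, against 21942 of all 30028 entries, and 45 were well above background on all 4 arrays. A gene was represented by the brightest of its detected probes, and 27 genes had more than 1 probe.

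Cochlear RNA of B6J mice aged 5 weeks was hybridized to 1 Agilent array per group, and the 4 groups were wild-type mice and *Prestin*-*hDTR* mice, each left untreated or treated with diphtheria toxin (DT). *Prestin*-*hDTR* mice, labelled OHC-TRECK in the records, carry the human DT receptor under the promoter of prestin (*Slc26a5*), the motor protein of outer hair cells, so that the toxin is directed to these cells. Below, the *Prestin*-*hDTR* mice are called transgenic and the mice given DT toxin-treated. DT was given at 50 μg/kg 7 days before dissection, and the labels describe each sample as pooled from male and female mice. How many mice or cochleae each array pools is not settled by the sources used here. With 1 array per group there was no replicate check, no test was possible, and differences were read as folds, with 2-fold as the limit used throughout. All levels are log2 of the processed intensity over the 75th percentile of the array, so that 0 is the level of the probe at that percentile, and levels are compared between groups for 1 probe and never between probes. Errors on log2 ratios are the SD that Feature Extraction assigns to the signals of both spots. They cover the spot and not the spread between mice.

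The arrays detected 62.2 to 70.6% of their probes, and no spot was saturated. The lowest signal counted as well above background was -5.93 in untreated wild-type, -5.48 in toxin-treated wild-type, -6.39 in untreated transgenic and -5.44 in toxin-treated transgenic mice. A dim gene could therefore be detected in an untreated group at a level that the toxin-treated arrays could not call, and for such genes the signals are given. The tissue was checked with lists of marker genes. All 11 markers of cochlear supporting cells and all 10 of outer hair cells were detected. The summed level of the outer hair cell list was 24.2 to 26.3 in the 3 other groups and 6.41 in toxin-treated transgenic mice. There, 6 of its 10 genes were 2-fold or more lower than in each of the 3 other groups, beside 0.291% of all genes. *Slc26a5* itself lay at -4.89, -4.47 and -5.06 in untreated wild-type, toxin-treated wild-type and untreated transgenic mice and was not well above background in toxin-treated transgenic mice, at -6.07. In whole cochleae, fewer cells of a type and less RNA per cell cannot be told apart.

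The cornified envelope is a sheet of cross-linked protein that replaces the membrane of the outermost cells of the skin. Involucrin, envoplakin and periplakin form its first scaffold, loricrin, the small proline-rich proteins and the late cornified envelope proteins reinforce it, and transglutaminases join them. Corneodesmosin holds the dead cells together until kallikreins cleave it, and the inhibitor encoded by *Spink5* restrains those kallikreins. Keratins fill epithelial cells as paired filaments, with *Krt8* and *Krt18* in simple epithelia such as those of the inner ear, *Krt5* and *Krt14* in basal cells of stratified epithelia, *Krt1* and *Krt10* above them, and *Krt6*, *Krt16* and *Krt17* in wounded skin.

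The sequences below carry the main contrast among the small proline-rich genes, since probes of 1 gene gave different values. The array placed 3 probes under the name *Sprr2a2*, each 60 bases long, each listed with accessions of both *Sprr2a1* and *Sprr2a2*, and all on chromosome 3 of the mm9 build. The first 30 bases of each are given 5′ to 3′ as printed on the array, and capitals mark a run of 20 bases that also occurs in 5 probes under other names.
Sprr2a2, downstream probe (chr3:92060587-92060646): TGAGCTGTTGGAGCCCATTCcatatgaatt
Sprr2a2, middle probe (chr3:92058417-92058476): ctgctgtttcatttcctgaaataaaaaagg
Sprr2a2, upstream probe (chr3:92054627-92054686): taaaaaagtgtctcagtgcttgactgcagt

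The windows of 250 bases before the transcription start of *Cdsn*, *Elf3*, *Ivl* and *Sprr2a1*, the genes on which the account turns, are given from RefSeq on the GRCm38.p6 build, 5′ to 3′ on the strand of the gene. Capitals mark matches on either strand to the AP-1 letters TGANTCA, the ETS core AGGAAG and the TATA box TATAAA. The gene *Cdsn* is listed with more than 1 start and the second is shown. *Elf3* is itself a factor of the ETS family.
Ivl (chr3:92573736-92573985, minus strand): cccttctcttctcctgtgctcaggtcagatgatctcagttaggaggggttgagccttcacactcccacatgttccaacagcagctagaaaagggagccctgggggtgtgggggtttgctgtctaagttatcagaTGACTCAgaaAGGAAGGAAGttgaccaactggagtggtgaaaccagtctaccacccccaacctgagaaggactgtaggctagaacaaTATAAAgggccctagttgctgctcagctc
Cdsn (chr17:35551878-35552127, plus strand): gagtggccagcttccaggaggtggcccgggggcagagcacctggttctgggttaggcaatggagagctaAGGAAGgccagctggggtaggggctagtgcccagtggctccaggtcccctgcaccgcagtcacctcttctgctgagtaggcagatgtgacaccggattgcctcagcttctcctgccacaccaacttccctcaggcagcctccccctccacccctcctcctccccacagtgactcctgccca
Elf3 (chr1:135258473-135258722, minus strand): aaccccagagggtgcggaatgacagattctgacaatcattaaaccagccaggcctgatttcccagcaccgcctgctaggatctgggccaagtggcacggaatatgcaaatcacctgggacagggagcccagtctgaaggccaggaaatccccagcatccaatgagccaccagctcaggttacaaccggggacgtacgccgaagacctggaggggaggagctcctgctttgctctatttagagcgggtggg
Sprr2a1 (chr3:92215585-92215834, plus strand): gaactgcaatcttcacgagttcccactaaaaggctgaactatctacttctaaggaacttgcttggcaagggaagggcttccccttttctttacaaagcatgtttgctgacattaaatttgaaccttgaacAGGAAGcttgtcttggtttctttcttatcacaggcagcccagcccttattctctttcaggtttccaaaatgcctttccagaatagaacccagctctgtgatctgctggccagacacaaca

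The *Ivl* window held an AP-1 match 116 bases before the start, overlapping ETS cores next to it, and a TATA box 29 bases before the start. The *Cdsn* window shown held 1 ETS core 181 bases before the start. In the window of the first listed *Cdsn* start, not shown, 1 ETS core lay 8 bases before that start. The *Elf3* window held none of the 3 motifs, and the *Sprr2a1* window 1 ETS core 120 bases before the start. The window of *Sprr2a2* was identical to that of *Sprr2a1* over 250 of 250 bases. Of 105 windows of 100 genes of the list that the RefSeq table held, 13 (12.4%) had an AP-1 match, 43 (41.0%) an ETS core and 34 (32.4%) a TATA box. Over all 32851 windows the shares were 6.75%, 29.5% and 12.4%. Among the 58 windows of 54 detected genes of the list, 6 had an AP-1 match, 27 an ETS core and 12 a TATA box. Many of these genes lie in clusters of near copies, and a match describes the letters and not binding.

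The first comparison asked what differed after toxin in mice carrying the receptor. Of 69 genes of the list that could be compared, 5 were 2-fold or more higher in toxin-treated than in untreated transgenic mice: *Cdsn*, *Elf3*, *Ivl*, *Spink5* and *Klk1b27*. That is 7.25%, beside 2.71% of all genes tested. Only *Sprr2k* was 2-fold or more lower (1 of 69, beside 1.42% of all genes). The higher genes lay in 3 role groups, the envelope proteins (*Cdsn*, *Ivl*), the regulators and inhibitor (*Elf3*, *Spink5*) and the glandular kallikreins (*Klk1b27*). No keratin reached 2-fold in this comparison. In 14 of the 69 the level detected on 1 array was no higher than the detection limit or the undetected signal of the other, so that no fold could be given. Over the 45 genes of the list measured on all 4 arrays the median log2 ratio was 0.13, beside -0.01 over all 18248 such genes, and against untreated wild-type mice the medians were -0.005 and -0.02.

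**Figure D1:**
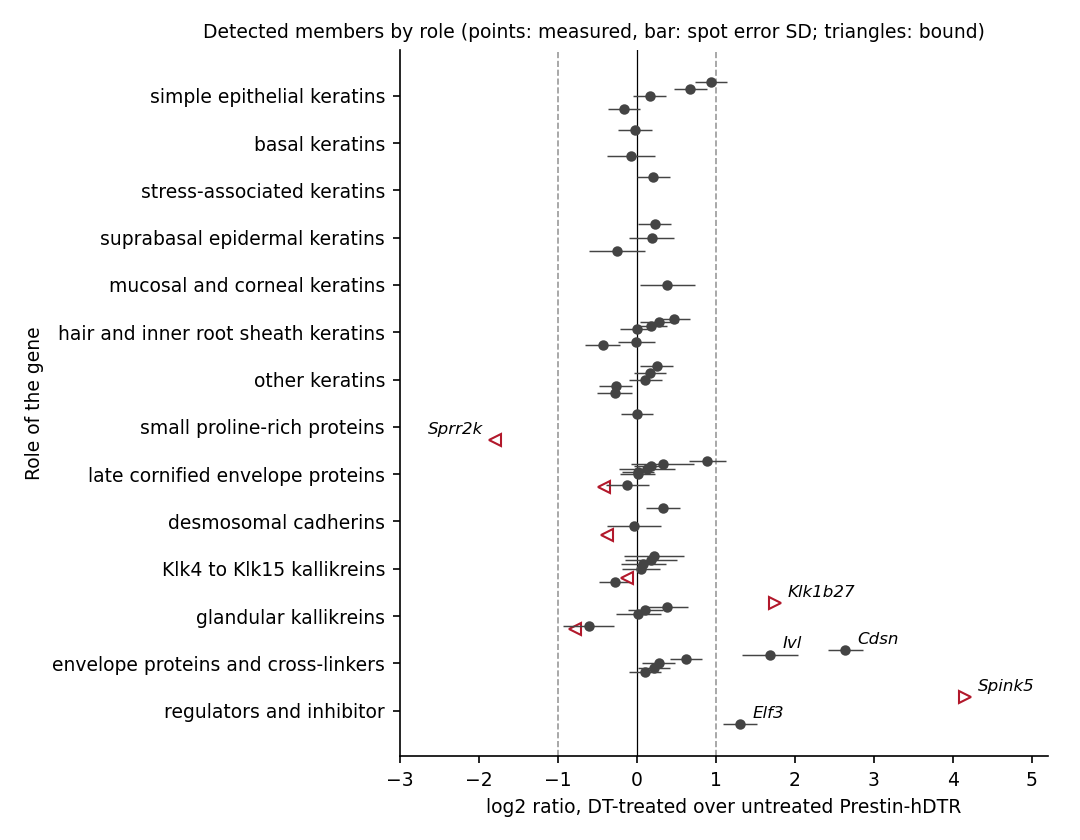
Log2 ratio of toxin-treated over untreated transgenic mice for each detected gene of the list that could be compared, by role, with 1 array per group. Points are measured ratios with the spot error SD as a bar, triangles are bounds for genes not well above background on 1 of the arrays, and dashed lines mark 2-fold. *Spink5* (a bound of 4.16) and *Cdsn* (2.64) lie farthest to the right and *Sprr2k* (-1.79, a bound) farthest to the left.

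*Cdsn*, which encodes corneodesmosin, was measured on all 4 arrays with 1 probe (chr17:35693799-35693858, mm9). Its level was -3.91 in untreated wild-type, -4.30 in toxin-treated wild-type, -4.18 in untreated transgenic and -1.55 in toxin-treated transgenic mice. The 3 other groups lay close together and toxin-treated transgenic mice stood far above them. The log2 ratio to untreated transgenic mice was 2.64 ± 0.22 (SD of the spot error), a 6.22-fold difference. The level was 5.16-fold higher than in untreated wild-type and 6.75-fold higher than in toxin-treated wild-type mice.

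*Elf3*, an epithelium-specific transcription factor of the ETS family, had a probe at chr1:137150328-137150387 (mm9) that was also measured on all 4 arrays. Its level was -4.08, -3.91 and -3.98 in untreated wild-type, toxin-treated wild-type and untreated transgenic mice and -2.67 in toxin-treated transgenic mice. The 3 other groups thus spanned less than the spot error, and toxin-treated transgenic mice were above all of them. The log2 ratio to untreated transgenic mice was 1.31 ± 0.22 (SD of the spot error), or 2.48-fold, and the level was 2.67-fold and 2.37-fold higher than in untreated and toxin-treated wild-type mice.

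*Spink5* was well above background in toxin-treated transgenic mice only. Its level there was -2.24, and the signals elsewhere, not well above background, were -7.69, -6.18 and -6.54 in untreated wild-type, toxin-treated wild-type and untreated transgenic mice. Against the lowest signal that counted as detected on each array, the level was at least 17.8-fold higher than in untreated transgenic mice, at least 12.9-fold higher than in untreated wild-type mice and at least 9.46-fold higher than in toxin-treated wild-type mice. Among its targets in skin, *Klk5*, *Klk7* and *Klk14* were on no array well above background.

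*Ivl*, which encodes involucrin, was detected in the transgenic mice only. Its level was -5.90 in untreated and -4.21 in toxin-treated transgenic mice, and its signals of -7.64 and -7.49 in untreated and toxin-treated wild-type mice were not well above background. The measured log2 ratio after toxin was 1.69 ± 0.35 (SD of the spot error), or 3.22-fold. The level was at least 3.28-fold higher than in untreated and at least 2.40-fold higher than in toxin-treated wild-type mice. The probe lies at chr3:92375498-92375557 (mm9), and a second *Ivl* probe was on no array well above background.

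Set against each of the 3 other groups, *Cdsn*, *Elf3*, *Ivl* and *Spink5* were 2-fold or more higher in toxin-treated transgenic mice, 4 of 51 genes of the list, beside 1.22% of all genes. None was lower against all 3 (0 of 51, beside 0.291% of all genes). To be counted here, a gene had to be detected in toxin-treated transgenic mice or in all 3 other groups. *Spink5* entered only through toxin-treated transgenic mice, while *Sprr2k* and *Lce1g*, not detected in them, did not enter. The counts of higher and lower genes are therefore not balanced. Just inside the limit, *Elf3* and *Ivl* had smallest folds of 2.37 and 2.40 (a bound for *Ivl*), and just outside it *Lce1c* had 1.86, *Krt8* 1.85 and *Krt18* 1.60. Of the 45 genes measured on all 4 arrays, 19 (42.2%) were highest in toxin-treated transgenic mice, beside 33.5% of all such genes, and 9 (20%) were lowest there, beside 35% of all such genes.

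**Figure D2:**
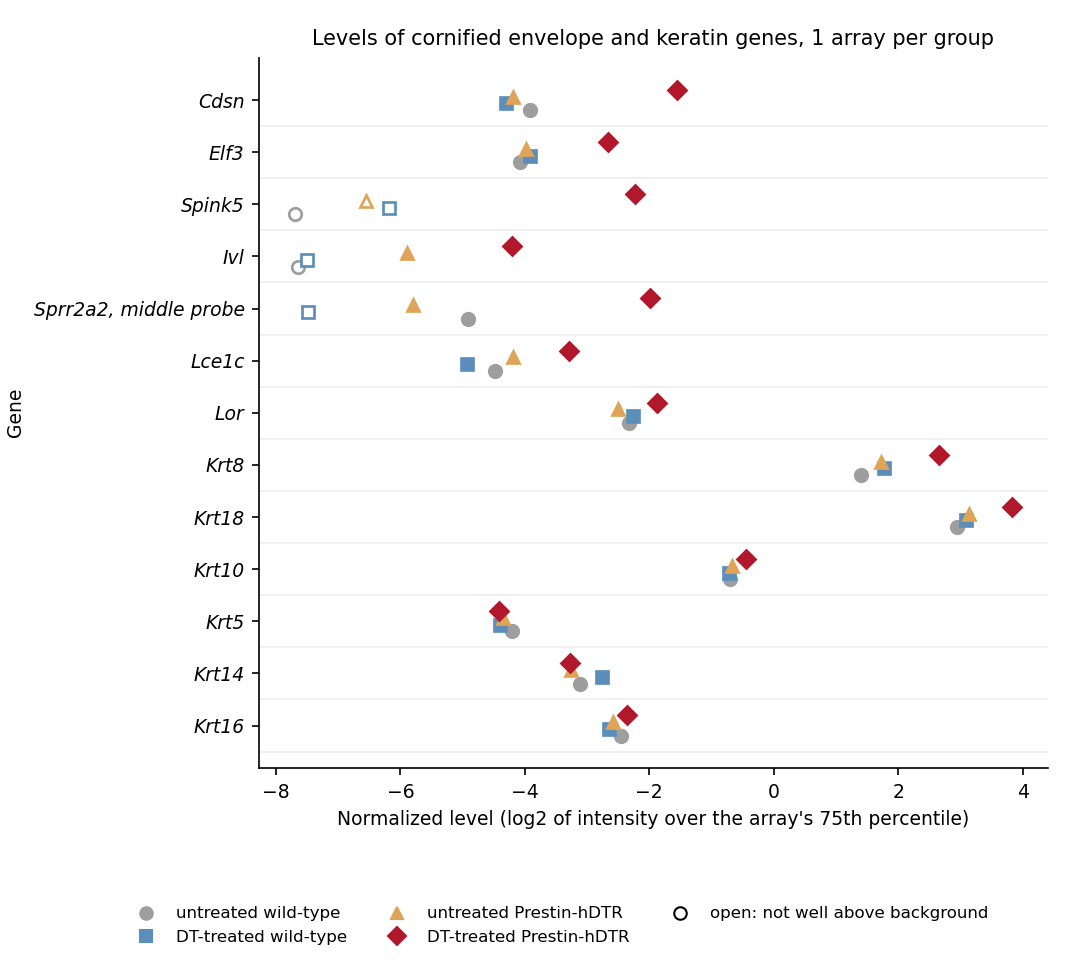
Normalized level (log2 of intensity over the 75th percentile of the array) of selected genes in the 4 groups, 1 array each, with open symbols for signals not well above background. In the upper rows, from *Cdsn* to the middle probe of *Sprr2a2*, toxin-treated transgenic mice stand apart from the other groups, while for *Krt5* (-4.41 against -4.40 to -4.20) and *Krt14* (-3.28 against -3.26 to -2.75) they do not.

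The small proline-rich genes were mostly not detected on these arrays. Of 14 genes, 11 were not well above background anywhere, namely *Sprr1b*, *Sprr3*, *Sprr2a1*, *Sprr2b*, *Sprr2d*, *Sprr2e*, *Sprr2f*, *Sprr2g*, *Sprr2h*, *Sprr2i* and *Sprr2j-ps*. *Sprr4* was detected in untreated transgenic mice only, at -5.47, a level below what the array of toxin-treated transgenic mice could call. *Sprr2k* was likewise detected only there, at -3.65, with signals of -6.41, -6.14 and -6.58 in untreated wild-type, toxin-treated wild-type and toxin-treated transgenic mice. It was therefore at least 3.46-fold lower after toxin in transgenic mice, and at least 4.83-fold higher in untreated transgenic than in untreated wild-type mice.

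The value of *Sprr2a2* depended on the probe. The downstream probe, the brightest and so the one representing the gene, gave 5.77, 5.52, 5.66 and 5.67 in untreated wild-type, toxin-treated wild-type, untreated transgenic and toxin-treated transgenic mice, a log2 ratio after toxin of 0.01 ± 0.20 (SD of the spot error). It shared runs of 20 to 31 bases with 6 probes under other names, some of them only probe or transcript identifiers, whose log2 differences between toxin-treated and untreated transgenic mice were -0.11 to 0.24. The middle probe, 2170 bases away and without such a run, gave -4.92 in untreated wild-type, -7.49 (not well above background) in toxin-treated wild-type, -5.80 in untreated transgenic and -1.99 in toxin-treated transgenic mice. By that probe the level after toxin in transgenic mice was 14.1-fold higher, with a log2 ratio of 3.82 ± 0.31 (SD of the spot error). It was 7.63-fold higher than in untreated wild-type and at least 11.2-fold higher than in toxin-treated wild-type mice. The upstream probe, 3790 bases from the middle one, was on no array well above background. Since all 3 probes are listed for *Sprr2a1* as well as *Sprr2a2*, these genes cannot be told apart here.

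Runs shared with probes under other names were also found for *Krt222*, a keratin-related gene. Its 2 detected probes differed little, with log2 ratios after toxin in transgenic mice of -0.27 (brightest) and -0.44. Its brightest probe holds a CA repeat, and 25 probes under other names share 20 to 23 bases with it. Part of that probe and the start of the second *Krt222* probe are shown, with capitals for a window of 20 bases held by 21 of those probes.
Krt222, brightest probe, bases 23 to 52 (probe at chr11:99095480-99095539, mm9): CACACACACACACACACACAcccggacata
Krt222, second probe, bases 1 to 30 (probe at chr11:99094648-99094707, mm9): agtaaatatgctttagccacaaggaactta

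The brightest *Krt222* probe gave 2.27, 1.86, 1.75 and 1.48 in untreated wild-type, toxin-treated wild-type, untreated transgenic and toxin-treated transgenic mice. All 25 probes sharing a run were highest in untreated wild-type and lowest in toxin-treated transgenic mice, and 24 of them had the same order of the 4 groups. Their log2 differences between these groups were -1.10 to -0.49. The second *Krt222* probe, at -2.66, -2.85, -2.88 and -3.32, also had its lowest level in toxin-treated transgenic mice. The part of the repeat in these values was not tested.

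**Figure D3:**
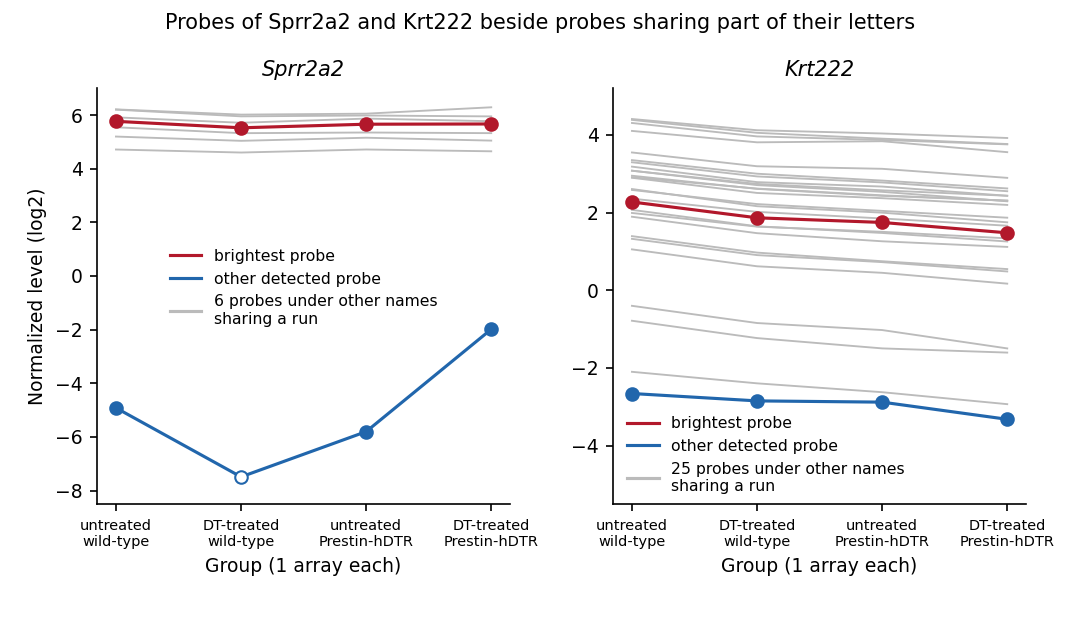
Normalized level (log2) of the detected *Sprr2a2* probes (left) and *Krt222* probes (right) in the 4 groups, 1 array each, beside probes under other names that share a run of 20 or more bases with the brightest probe (grey). The brightest *Sprr2a2* probe stays between 5.52 and 5.77 with its 6 grey companions, whereas the middle probe is at -1.99 in toxin-treated transgenic mice and at -4.92 or lower elsewhere, the open circle being a signal not well above background. The brightest *Krt222* probe runs parallel to its 25 companions.

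Of the envelope proteins, 5 were measured on all 4 arrays (*Cdsn*, *Lor*, *Evpl*, *Ppl* and *Tgm3*). All 5 had their highest level in toxin-treated transgenic mice, beside 33.5% of all genes measured on 4 arrays. Only *Cdsn* of the 5 passed 2-fold. *Lor*, encoding loricrin, gave -2.32, -2.25, -2.51 and -1.88 in untreated wild-type, toxin-treated wild-type, untreated transgenic and toxin-treated transgenic mice, 1.54-fold higher after toxin in transgenic mice (log2 ratio 0.63 ± 0.21, SD of the spot error). The plakins *Evpl* and *Ppl* and the transglutaminase gene *Tgm3* had log2 ratios of 0.22, 0.28 and 0.10 in that comparison, with spot errors of 0.20 each. *Flg*, encoding filaggrin, was near the detection limit, with signals of -5.03, -5.38, -5.44 and -5.30 in untreated wild-type, toxin-treated wild-type, untreated transgenic and toxin-treated transgenic mice, and gave no fold after toxin in transgenic mice. *Tgm1* and the transcription factor gene *Grhl3* were on no array well above background.

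Among the late cornified envelope genes, 12 of 20 were detected and 6 were measured on all 4 arrays. *Lce1c* was the only one of the 6 that reached 2-fold in any comparison, with -4.47 in untreated wild-type, -4.93 in toxin-treated wild-type, -4.19 in untreated transgenic and -3.30 in toxin-treated transgenic mice. It was 2.26-fold and 3.11-fold higher in toxin-treated transgenic than in untreated and toxin-treated wild-type mice and 1.86-fold higher than in untreated transgenic mice. Its probe is also listed for *Lce1e* and *Lce1f*, and the other *Lce1c* probe was on no array well above background. *Lce1a2* (0.34, 0.25, 0.17 and 0.18) and *Lce1j* (-2.18, -2.44, -2.46 and -2.29) differed little between the same groups in that order. A second *Lce1a2* probe, measured on all 4 arrays, gave -2.19, -2.39, -2.36 and -1.91 and was 1.37-fold higher after toxin in transgenic mice.

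The keratins showed smaller differences. *Krt8* gave 1.41 in untreated wild-type, 1.77 in toxin-treated wild-type, 1.72 in untreated transgenic and 2.66 in toxin-treated transgenic mice, and its filament partner *Krt18* gave 2.95, 3.10, 3.15 and 3.83. Both were highest in toxin-treated transgenic mice. *Krt8* was 1.92-fold higher than in untreated transgenic (log2 ratio 0.94 ± 0.20, SD of the spot error) and 2.38-fold higher than in untreated wild-type mice. A second *Krt8* probe gave the same log2 ratio after toxin, 0.94. *Krt18* was 1.60-fold, 1.83-fold and 1.66-fold higher than in untreated transgenic, untreated wild-type and toxin-treated wild-type mice. The other simple keratins did not share this, since *Krt19* was lowest in toxin-treated transgenic mice (-0.49, against -0.36 to -0.28) and *Krt7* lay inside the range of the 3 other groups at -0.55. *Krt20*, detected at -5.72 in untreated transgenic mice, lay there below what the array of toxin-treated transgenic mice could call.

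Keratins of stratified epithelium and of wounded skin differed little between groups or were not detected. The basal keratins *Krt5* and *Krt14* had log2 ratios of -0.07 and -0.02 between toxin-treated and untreated transgenic mice, and the basal keratin *Krt15* was not detected. Among suprabasal keratins, *Krt10* gave 0.23, *Krt2* 0.19 and *Krt9* -0.25 in the same comparison, and *Krt1* and *Krt77* were on no array well above background. *Krt16*, a keratin of wounded skin, had a ratio of 0.21 ± 0.21 (SD of the spot error), *Krt6b* was well above background on 1 array only, with signals of -5.52 in untreated and -5.26 in toxin-treated transgenic mice that gave no fold, and *Krt6a* and *Krt17* were not detected. *Krt13*, a keratin of mucosal epithelium, gave -5.43, -5.45 and -5.06 in untreated wild-type, untreated transgenic and toxin-treated transgenic mice and was not well above background in toxin-treated wild-type mice.

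Of 24 keratins of hair and its inner root sheath, 9 were detected, 6 of them on all 4 arrays, and their log2 ratios after toxin in transgenic mice were -0.43 (*Krt28*) to 0.47 (*Krt85*). The ratio of *Krt85* came from 1 probe, and its other 2 probes gave -0.07 and -0.24. *Krt73* gave 0.18 in the same comparison, and *Krt83*, with signals of -6.10 in untreated and -6.12 in toxin-treated transgenic mice, gave no fold. Of keratins outside these groups, *Krt23* had its highest level in toxin-treated transgenic mice (1.47, against 0.96 to 1.36), as did *Krt79* (0.74, against 0.30 to 0.49), and *Krt42* its lowest (-2.97, against -2.82 to -2.70).

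Desmosomal cadherins join epithelial cells to each other. Of 9 genes, *Dsg2* and *Dsc2* were measured on all 4 arrays. *Dsc2* had a log2 ratio of -0.04 after toxin in transgenic mice and *Dsg2* one of 0.33 ± 0.22 (SD of the spot error). Another *Dsg2* probe was well above background in toxin-treated transgenic mice only, at -4.85, with a bound of 1.55 on the log2 ratio to untreated transgenic mice.

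The kallikreins split into the group *Klk4* to *Klk15*, which holds the skin proteases, and the glandular kallikreins, a rodent family of near copies. Of the first, 7 of 12 were detected and none differed by 2-fold between toxin-treated transgenic mice and any other group. *Klk6*, a protease of the nervous system and skin, was highest in untreated wild-type mice at 0.78, beside 0.00, 0.10 and -0.18 in toxin-treated wild-type, untreated transgenic and toxin-treated transgenic mice, and *Klk8* had a log2 ratio of 0.06 after toxin in transgenic mice. The glandular gene *Klk1b5* gave -2.61 in untreated wild-type, -3.64 in toxin-treated wild-type, -4.24 in untreated transgenic and -4.85 in toxin-treated transgenic mice. It was thus highest in untreated wild-type mice, 4.74-fold higher than in toxin-treated transgenic mice. *Klk1b27* was detected in untreated wild-type mice at -4.82 and in toxin-treated transgenic mice at -4.65, which was at least 3.36-fold higher than in untreated transgenic but 1.13-fold higher than in untreated wild-type mice. *Klk1b21* had a log2 ratio of 0.11 after toxin in transgenic mice, and *Klk1b3* gave no fold, with signals of -5.86 in untreated and -5.61 in toxin-treated transgenic mice.

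The remaining comparisons asked how toxin-treated transgenic mice stood against each wild-type group, and what toxin did without the transgene and the transgene without toxin. Against untreated wild-type mice, 6 of 59 genes were 2-fold or more higher (*Cdsn*, *Elf3*, *Ivl*, *Spink5*, *Krt8* and *Lce1c*), beside 2.11% of all genes, and 2 were lower (*Klk1b5* and *Lce1g*), beside 2.05%. Against toxin-treated wild-type mice, 5 of 51 were higher (*Cdsn*, *Elf3*, *Ivl*, *Spink5* and *Lce1c*), beside 1.52%, and *Klk1b5* alone was lower, beside 1.95%. These comparisons and the first share the array of toxin-treated transgenic mice.

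In wild-type mice, toxin was followed by no difference of 2-fold or more upwards (0 of 57 genes, beside 1.55% of all genes), while *Klk1b5* and *Lce1g* were lower (2 of 57, beside 1.12%). *Klk1b5* was 2.04-fold lower and *Lce1g*, at -2.45 in untreated wild-type mice and not well above background after toxin, at least 8.13-fold lower. Between untreated transgenic and untreated wild-type mice, *Sprr2k* was higher (1 of 69, beside 1.03%) and *Klk1b5*, *Klk1b27* and *Lce1g* were lower (3 of 69, beside 2.42%), *Klk1b5* by 3.11-fold, *Lce1g* by 5.94-fold and *Klk1b27* by at least 2.97-fold. *Cdsn* and *Elf3* differed by 1.31-fold or less in either of these comparisons. *Lce1g* and *Klk1b5* were highest in untreated wild-type mice, so most of their differences rest on that 1 array. Without it, *Klk1b5* was still 2.33-fold lower in toxin-treated transgenic than in toxin-treated wild-type mice.

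Because these genes are expressed both in skin and in epithelia under stress, marker lists of skin, other epithelia and stress were set beside them. Of 23 markers of epidermal keratinocytes, 18 were detected, 13 on all 4 arrays. Of these 13, 7 were highest and 3 lowest in toxin-treated transgenic mice, beside 33.5% and 35% of all genes measured on 4 arrays. Their summed linear level was 16.7 to 18.5 in the 3 other groups and 19.4 in toxin-treated transgenic mice, 1.16-fold higher than in untreated transgenic mice. Of the defining markers, *Krt1* was on no array well above background, and *Krtdap*, a keratinocyte differentiation gene, was detected at -4.93 in untreated wild-type and -6.10 in untreated transgenic mice. The latter level is below what the toxin-treated arrays could call, where its signals were -6.11 in wild-type and -6.20 in transgenic mice. *Krt15*, *Calm4*, *Aqp3* and *Skint3* were likewise undetected. *Trp63*, the master regulator of stratified epithelium, was lowest in toxin-treated transgenic mice (0.67, against 0.76 to 0.97). Only *Ly6d* of this list (1 of 18, beside 2.71% of all genes) was 2-fold or more higher after toxin in transgenic mice, at -3.15 against -4.26. It was higher still in toxin-treated wild-type mice at -1.76. After toxin in wild-type mice, 2 genes of this list were 2-fold or more higher and 1 lower, beside 1.55% and 1.12% of all genes. The list holds *Krt5*, *Krt10*, *Krt14* and the undetected *Krt1* and *Krt15*, which are also genes of the set described here.

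Of 60 hair follicle markers, 34 were detected, and their summed level of 7.77 in toxin-treated transgenic mice lay inside the range of the 3 other groups, 7.45 to 8.24. In this list *Krtap4-7* was 2.83-fold higher and *Krtap28-10* higher by a bound of 1.43 on the log2 scale after toxin in transgenic mice. That is 2 of 34, beside 2.71% of all genes, and against all 3 other groups 1 of 34, beside 1.22%. *Krtap4-7*, a keratin-associated protein gene of hair, was 2-fold or more higher there than in each of the 3 other groups, by at least 2.77-fold and 2.03-fold against untreated and toxin-treated wild-type mice. The sebaceous gland list, with 6 of 7 genes detected, had a sum of 2.58 against 1.77 to 1.94. None of its genes differed by 2-fold after toxin in transgenic mice. Their median log2 difference from the mean of the 3 other groups was -0.02. Mucosa of the middle ear and airway, with 11 of 12 genes detected, had its lowest sum in toxin-treated transgenic mice (3.89, against 6.01 to 8.99). Only *Bpifa1* was 2-fold or more lower there than in untreated transgenic mice (1 of 11, beside 1.42% of all genes). Against untreated and toxin-treated wild-type mice 2 were lower each, beside 2.05% and 1.95%. The median log2 difference of the list from the mean of the 3 other groups was -0.04. Melanocyte markers, 6 of 6 detected, summed to 78.2 there and to 67.1 to 72.5 elsewhere.

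Most genes of epithelia in general had their highest level in toxin-treated transgenic mice. Of 17 such genes 16 were detected, with a summed level of 25.9 in that group and 17.9 to 19.8 in the others. Of the 15 measured on all 4 arrays, 14 were highest in toxin-treated transgenic mice, beside 33.5% of all genes measured on 4 arrays. *Elf5*, another ETS factor, gave -3.66, -3.86 and -3.59 in untreated wild-type, toxin-treated wild-type and untreated transgenic mice and -1.90 in toxin-treated transgenic mice. *Elf5* and the tight junction gene *Cldn4* were 2-fold or more higher than in each other group (2 of 16, beside 1.22% of all genes). The gene *Epcam*, for an adhesion protein of epithelial cells, reached 0.70 against -0.05 to 0.19. The summed level of supporting cell markers was 142 beside 121 to 127, with no gene of the 11 at 2-fold after toxin in transgenic mice. Of the 11, 4 were highest and 3 lowest in toxin-treated transgenic mice. Their median log2 difference from the mean of the 3 other groups was 0.01.

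Of 25 genes of epithelial stress and repair, 20 were detected, and 6 were 2-fold or more higher after toxin in transgenic mice (*Atf3*, *Fos*, *Gadd45a*, *Slpi*, *Lcn2* and *Ecm1*) and 1 lower (*Il33*), beside 2.71% and 1.42% of all genes. Against untreated wild-type mice 5 were higher and 1 lower, beside 2.11% and 2.05% of all genes. Against toxin-treated wild-type mice 3 were higher and 2 lower, beside 1.52% and 1.95%. After toxin in wild-type mice 2 were higher and 1 lower, beside 1.55% and 1.12% of all genes. Between the untreated groups, 4 were lower in transgenic than in wild-type mice and 0 higher, beside 2.42% and 1.03%. The summed level of the list was 19.0 in toxin-treated transgenic mice and 13.3 to 15.3 in the others. The transcription factor genes *Atf3* and *Fos* and the growth arrest gene *Gadd45a* were 2-fold or more higher there than in each other group. That is 3 of 20, beside 1.22% of all genes. *Fos*, a subunit of AP-1, gave -2.88, -2.86, -2.88 and -1.16 in untreated wild-type, toxin-treated wild-type, untreated transgenic and toxin-treated transgenic mice. *Slpi* and *Lcn2*, secreted by epithelia and neutrophils, did not single out the toxin-treated transgenic mice, since toxin-treated wild-type mice had -1.13 and 0.83 beside -1.06 and 0.66. The neutrophil list summed to 23.5 in toxin-treated transgenic mice, inside the range of 13.7 to 59.8 of the others, and the macrophage list to 27.9, above their 14.3 to 16.5. Whether stressed cochlear epithelium or carried-over skin contributed to the levels of *Cdsn*, *Elf3*, *Spink5*, *Ivl* and the middle *Sprr2a2* probe was not tested.

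**Figure D4:**
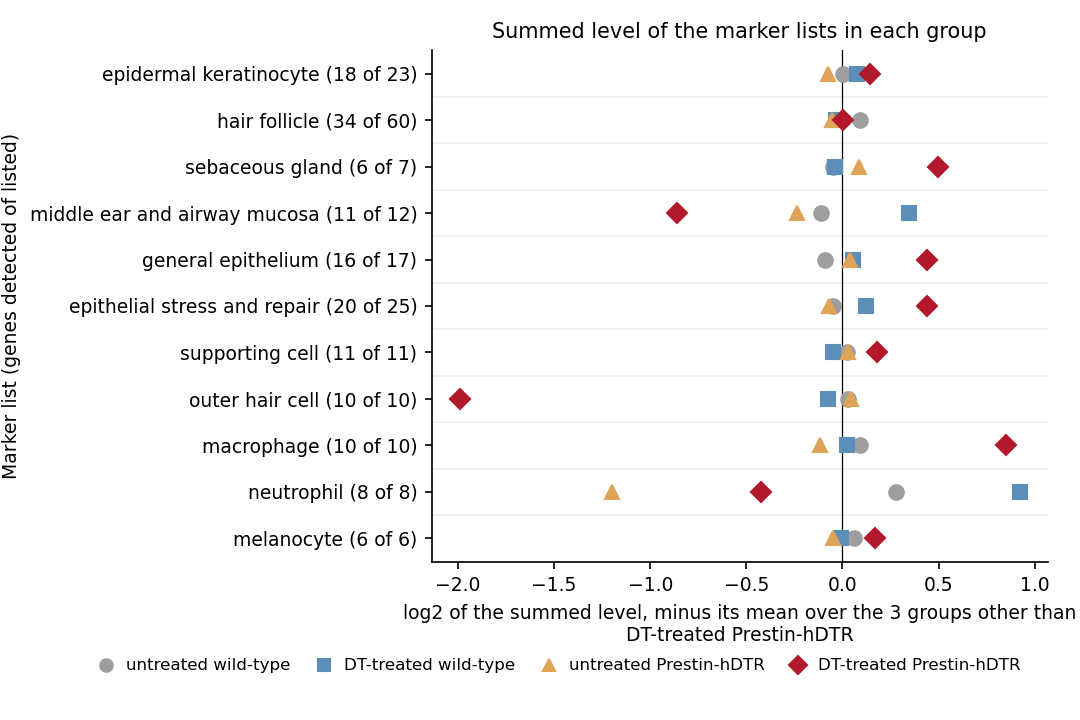
Summed linear level of the detected genes of each marker list in the 4 groups (1 array each), as log2 minus the mean of the 3 groups other than toxin-treated transgenic mice. The toxin-treated transgenic mice lie above the others for general epithelium (25.9 against 17.9 to 19.8 on the linear scale), epithelial stress and repair (19.0 against 13.3 to 15.3), sebaceous gland (2.58 against 1.77 to 1.94), macrophages (27.9 against 14.3 to 16.5) and, by less, epidermal keratinocytes (19.4 against 16.7 to 18.5), supporting cells (142 against 121 to 127) and melanocytes (78.2 against 67.1 to 72.5), below them for outer hair cells (6.41 against 24.2 to 26.3) and among them for hair follicle (7.77 against 7.45 to 8.24).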

How the data were processed

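The authors hybridized Cy3-labelled cRNA made from total cochlear RNA to 1 Agilent one-colour array per group, all 4 on 1 slide, and deposited the scanner output of Agilent Feature Extraction 11.5.1.1, whose values are intensity per spot, with background already subtracted in the processed signal. The intensity values of the series table that the authors deposited were the same signals divided by a constant per array. Probe coordinates follow the array files (mm9).

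Here control spots and outlier spots were left out and spots of a probe were averaged. Levels are log2 of the processed signal minus log2 of the 75th percentile of the array. The study's methods name this percentile scaling and the 2-fold limit. Their second step, a baseline transformation to sample medians, was not applied. Each gene was represented by the brightest probe well above background on at least 1 array. A gene entered a comparison if detected on 1 of its arrays, and a signal not well above background was raised to the lowest detected signal of that array, so that the fold is a bound ("at least"). With 1 array per group, no test was run, and precision is limited by having so few arrays. Repeated spots of a probe had a median SD of 0.06 to 0.07 on the log2 scale. Of 166 probes of the list, 153 had an accession in the RefSeq table, and 9 were listed with accessions of more than 1 gene.

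Named were *Cdsn*, *Elf3* and all *Sprr2* genes, genes at 2-fold against all 3 other groups, the 5 largest measured differences per direction in 3 comparisons, the 2 brightest genes per role, listed envelope genes and defining markers. Others, such as *Klk1b27* and *Krt79*, were named after their values were seen. The genes, *Cdsn* and *Elf3* among them, and the marker lists were chosen with earlier results of these data known, so their shares beside all genes are descriptions. Code was tested on simulated data. The work used Python 3.11.15, numpy 2.4.6, pandas 2.3.3, matplotlib 3.10.9, R 4.3.3 and limma 3.58.1 (normexp alternative). The 9 alternatives covered the filter, the floor, background correction, scaling, the source of values, the probe rule and the fold limit, and 1 on shared probe letters was added after seeing the data.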

Additional observations from a re-analysis of the deposited data

Results flagged for a closer look

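The middle *Sprr2a2* probe, which does not represent the gene in the comparisons because another probe is brighter, carried a signal above the level of the 3 other groups. Its log2 ratio between toxin-treated and untreated transgenic mice was 3.82 ± 0.31 (SD of the spot error), against 0.01 for the brightest probe. It was the only probe not representing its gene that was 2-fold or more higher there than in each of the 3 other groups, and the cause of the difference between the probes was not tested.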

How the results depend on the processing

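With 1 array per group, leaving out a replicate was not possible, and 1-array differences carry no estimate of the spread between mice. No paired analysis was possible because each group has 1 array. Of 140 values of the main results under the alternatives, 108 stayed within the limits set (counts within 1.5 times, log2 values within the spot error SD, with a median of 0.22) and 32 moved. No value at 2-fold or more changed sign, while *Sprr2a2*, at 0.01, was -0.01 under normexp and -0.02 under quantile normalization, and all 72 values of 9 marker lists (all but those of epidermis and stress, counted before) stayed within them. *Cdsn* ranged from 2.16 (normexp background correction) to 2.65 on the log2 scale between toxin-treated and untreated transgenic mice, and it and *Elf3* passed 2-fold under every alternative. *Sprr2a2* went from 0.01 to 1.91 with the mean of its detected probes and to 3.82 with probes free of a shared run, an alternative chosen after seeing the data. *Sprr2k* went from -1.79 to -2.93 without the filter or without the floor and to -1.13 with normexp. Genes higher after toxin in transgenic mice numbered 5, 2 when detection on all 4 arrays was required (2 of 45, beside 1.37% of all genes) and 9 at 1.5-fold (9 of 69, beside 5.1%), and those lower 1, then 0 with detection on all 4 arrays, 12 without the filter, 9 without the floor and 3 at 1.5-fold. Against all 3 other groups 4 were higher, 2 with detection on all 4 arrays (beside 0.526% of all genes) and 7 at 1.5-fold (beside 2.9%), and 0 lower, 4 without the filter and 1 at 1.5-fold. After toxin in wild-type mice 0 were higher, 4 without the filter, and 2 lower, 1 with detection on all 4 arrays, with normexp or with median scaling, 9 without the filter, 4 without the floor and 6 at 1.5-fold. Between the untreated groups 1 was higher, 0 with detection on all 4 arrays, 6 without the filter, 3 without the floor and 2 with median scaling, with quantile normalization or at 1.5-fold, and 3 lower, 1 with detection on all 4 arrays, 8 without the filter and 6 at 1.5-fold. Under normexp *Ivl* was below 2-fold against 1 or more of the 3 other groups and *Klk1b27* was below 2-fold after toxin in transgenic mice. Without the filter 133 genes of the list were counted, and with detection on all 4 arrays 45. Where a count under an alternative has no share of all genes beside it, none was computed. Such a count is not read as a result about the list. The causes of these moves were not tested beyond what the alternatives themselves change.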

Other observations

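*Sprr1a*, a small proline-rich gene known from injured neurons as well as skin and not part of the list, gave -1.13 in toxin-treated transgenic mice, -4.98 in toxin-treated wild-type and -5.93 in untreated transgenic mice, and was not well above background in untreated wild-type mice at -6.12. *Egfbp2*, which RefSeq lists as the glandular kallikrein *Klk1b26*, gave -4.99 in toxin-treated wild-type, -4.55 in untreated transgenic and -3.73 in toxin-treated transgenic mice and was not well above background in untreated wild-type mice at -5.58. Its probe shares 55 bases with the probe named *Klk1b26*.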
